A study of Mus musculus with 6 samples.

Results

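The 40 genes described here belong to the mature migratory program of dendritic cells (DCs), the state a DC enters when it stops sampling its tissue and travels to a lymph node. They were taken from a list of genes known from homeostatic or activated DC maturation. All 40 were found among the 54532 gene identifiers of the count tables, and all 40 passed the filter on low counts that left 12894 genes for testing. RNA had been sequenced from conventional type 1 DCs (cDC1s) that were grown from mouse bone marrow for 8 days with 80 ng/mL FLT3L, a growth factor of DC development, and were sorted as CD24+CD11c+ cells without B220, CD115 or CD172a. Of the 6 libraries, 3 came from *c-Jun/JunB* fl/fl cells, in which both genes are floxed and intact (fl/fl 1, 2 and 3). The other 3 came from cells that carry the same floxed alleles and the *Itgax*-Cre transgene (Δ/Δ 1, 2 and 3), where Cre, driven by the promoter of the CD11c gene, serves to delete both genes in CD11c+ cells. According to the methods, the mice were adults of both sexes and of a mixed background, and no label ties a library to a sex, a litter or a day of culture. The labels call the libraries replicates, and a legend of the study counts these samples as single mice.

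Mature DCs share a core of migratory features across different triggers. They switch on the chemokine receptor CCR7, which steers them along CCL19 and CCL21 to the T cell zone, bundle actin with fascin to build long dendrites, and secrete CCL17 and CCL22, ligands of the chemokine receptor CCR4 on T cells. Transcription factors of the NF-κB family drive much of this switch, and many of the genes they induce, such as *Traf1* and *Birc3*, act in the same pathway. DCs can also mature at steady state, without a microbial stimulus, and the migratory genes are shared between that route and activation.

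Libraries held 21693217 to 26788296 reads on genes, and levels are given as CPM, reads on a gene relative to the library's total, scaled with edgeR's TMM factors. The quasi-likelihood test of edgeR compared the genotypes, and its p-values were adjusted by Benjamini-Hochberg over the 12894 genes. Log2 changes (Δ/Δ over fl/fl), their standard errors (SE) and adjusted p-values below come from that fit. Calls required an adjusted p below 0.05 and a log2 change of 1 or more in either direction. *Jun* had 70.9, 52.5 and 63.1 CPM across fl/fl against 48.2, 44.3 and 60.5 CPM across Δ/Δ libraries (adjusted p = 0.345). *Junb* had 315, 274 and 413 CPM across fl/fl against 110.4, 171 and 212 CPM across Δ/Δ libraries (adjusted p = 0.0729). Counts over whole genes do not resolve the floxed parts, and how complete the deletion was in these libraries was not tested. The paper measured both transcripts by RT-qPCR in cDC1s of such cultures. It also reports their deletion by RT-qPCR in cDC1s and cDC2s sorted from mice. *Itgax*, whose promoter drives the Cre, fell (114, 128 and 153 CPM across fl/fl against 44.8, 55.1 and 69.02 CPM across Δ/Δ libraries, log2 change −1.22, SE 0.17, adjusted p = 0.0147). Without any 1 of the fl/fl libraries *Itgax* missed the limit (adjusted p = 0.0505 to 0.0781). The summed level of 10 cDC1 markers lay at 10695 to 11015 CPM over fl/fl and 8727 to 10614 CPM over Δ/Δ libraries. The sums did not overlap, but Δ/Δ 2 (10614 CPM) lay close to fl/fl 3 (10695 CPM). Most of the sum came from *Wdfy4*, *Irf8* and *Naaa*, with fl/fl means of 3692, 2712 and 2316 CPM. All 6 libraries are labelled cDC1, and the cDC1 genes *Irf8*, *Clec9a* and *Batf3* were present in each. Of the same markers *Xcr1* and *Tlr3* fell, with values given below.

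The Δ/Δ libraries did not form a tight group for the mature migratory genes, and every genotype comparison below rests on that. Δ/Δ 2 exceeded Δ/Δ 1 in 40 of the 40 genes, and the order Δ/Δ 2, Δ/Δ 3, Δ/Δ 1 from high to low was found in 36 of them, against 17.1% of all tested genes. In 30 of the 40 genes Δ/Δ 2 was the highest and Δ/Δ 1 the lowest of all 6 libraries, an arrangement seen in 5.42% of all tested genes. The highest Δ/Δ library exceeded the lowest at least 4-fold in 23 of the 40 genes, against 5.04% of all. For 28 of the 40 genes (3.33% of all), Δ/Δ 2 lay above every fl/fl library while Δ/Δ 1 and Δ/Δ 3 lay below every one of them. Relative to the fl/fl mean of each gene, the median of the 40 genes was −1.75 in Δ/Δ 1, 0.63 in Δ/Δ 2 and −0.97 in Δ/Δ 3 on the log2 CPM scale. The median of all tested genes lay within 0.01 of 0 in each of these libraries. In bulk RNA, fewer mature cells and less of these transcripts per mature cell cannot be told apart.

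**Figure D1:**
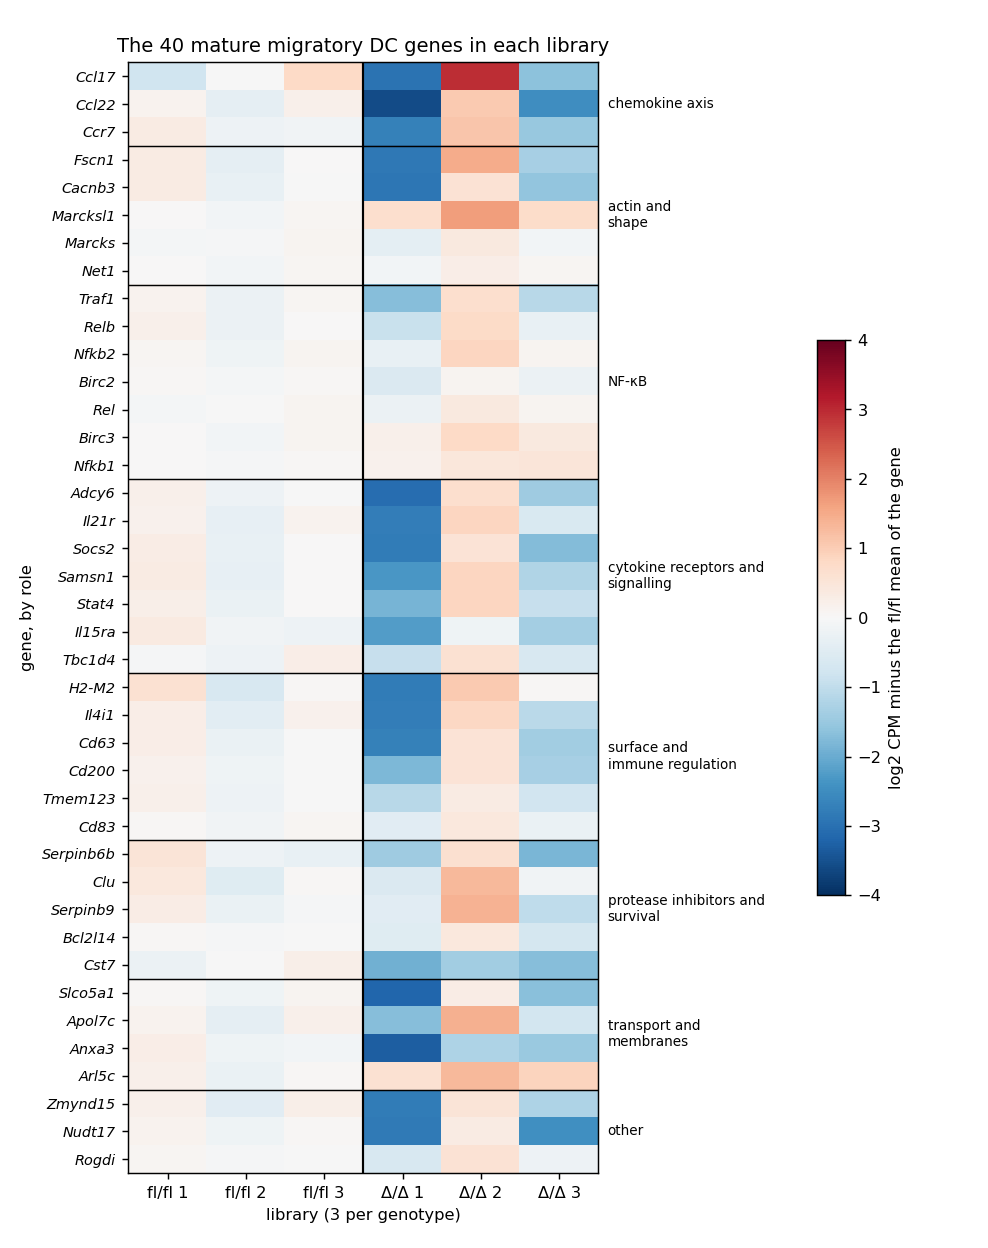
Each row is 1 of the 40 genes, ordered by role, and each column a library; the colour gives log2 CPM minus the mean of the gene over the 3 fl/fl libraries. The fl/fl columns are pale, Δ/Δ 1 and Δ/Δ 3 are blue for most genes and Δ/Δ 2 is red for most. *Cst7*, *Anxa3* and, faintly in Δ/Δ 2, *Il15ra* are blue and *Marcksl1*, *Arl5c*, *Birc3* and *Nfkb1* red in all 3 Δ/Δ libraries.

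The spread within a genotype was unequal for each member. The SD of log2 CPM was larger over the Δ/Δ than over the fl/fl libraries in 40 of the 40 genes, and in 70.4% of all tested genes. Its median over the 40 genes was 0.23 in fl/fl and 1.24 in Δ/Δ, against 0.11 and 0.17 over all tested genes. The smallest Δ/Δ spreads belonged to *Nfkb1* and *Net1*, with 0.18 for each, and *Ccl17* and *Ccl22* had the largest ones, with 3.10 and 2.41. A milder order was visible within fl/fl, where fl/fl 2 was the lowest library in 34 of the 40 genes (31.1% of all tested genes) and fl/fl 1 the highest in 25 (33.3% of all). The medians of the 40 genes in fl/fl 1, 2 and 3 differed from the fl/fl means by 0.18, −0.20 and 0.05 on the log2 scale. The members thus also moved together among the fl/fl libraries, over a much narrower range.

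**Figure D2:**
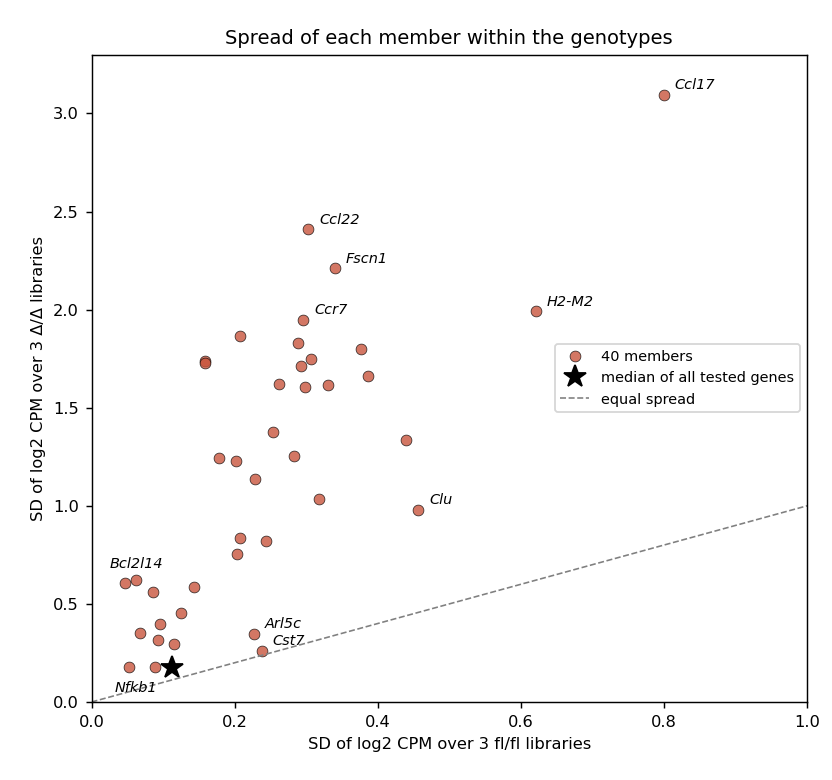
Each point is a member, with the SD of log2 CPM over the 3 fl/fl libraries on the x axis and over the 3 Δ/Δ libraries on the y axis, the dashed line marks equal spread and the star the median of all tested genes. All 40 points lie above the line, with *Cst7*, *Arl5c* and *Nfkb1* near it and *Ccl17*, *Ccl22*, *Fscn1* and *H2-M2* farthest up.

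c-Jun and JunB bind DNA as part of AP-1, whose consensus site reads TGANTCA, and the related cyclic AMP response element (CRE) reads TGACGTCA. For that reason, and because the members moved together across libraries, the 250 bases before the RefSeq transcription starts of the members were searched on both strands for these motifs and for the NF-κB motif GGGNNTTTC. RefSeq promoter entries on GRCm38.p6 were at hand for 28 of the 40 genes, with 37 starts. The AP-1 motif was found for 2 of the 28 genes (7.14%), *Il15ra* and *Nfkb2*, and in 6.75% of all 32851 promoters and 5.18% of the 9314 tested genes with an entry. The CRE was found for *Birc2* and *Fscn1* (7.14% of the 28, against 1.55% of all promoters and 3.04% of tested genes), and the NF-κB motif for 4 genes, *Apol7c*, *Cst7*, *Nfkb2* and *Rel* (14.3%, against 3.72% of all promoters and 4.27% of tested genes). Shown here 5′ to 3′ with the motifs in capitals are the windows of *Fscn1*, the actin bundler with the CRE, of *Apol7c* and the called gene *Cst7* with an NF-κB motif, and the window of *Nfkb2* with both an AP-1 and an NF-κB motif.
*Fscn1*, chr5:142960105-142960354, plus strand: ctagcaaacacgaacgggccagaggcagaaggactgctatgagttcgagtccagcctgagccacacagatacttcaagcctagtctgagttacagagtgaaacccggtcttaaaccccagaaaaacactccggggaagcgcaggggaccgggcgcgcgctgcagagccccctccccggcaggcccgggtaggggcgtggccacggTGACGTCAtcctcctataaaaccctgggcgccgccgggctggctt
*Apol7c*, chr15:77533316-77533565, minus strand: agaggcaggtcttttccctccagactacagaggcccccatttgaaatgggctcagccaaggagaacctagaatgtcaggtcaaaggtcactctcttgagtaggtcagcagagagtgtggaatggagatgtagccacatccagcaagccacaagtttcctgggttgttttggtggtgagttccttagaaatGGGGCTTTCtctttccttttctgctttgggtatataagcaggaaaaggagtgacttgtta
*Cst7*, chr2:150570165-150570414, plus strand: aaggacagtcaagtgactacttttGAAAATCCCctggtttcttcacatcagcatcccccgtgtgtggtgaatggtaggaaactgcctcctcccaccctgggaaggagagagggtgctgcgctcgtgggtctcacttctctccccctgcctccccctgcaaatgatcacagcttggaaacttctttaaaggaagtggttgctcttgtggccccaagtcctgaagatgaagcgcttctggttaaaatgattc
*Nfkb2*, chr19:46305445-46305694, plus strand: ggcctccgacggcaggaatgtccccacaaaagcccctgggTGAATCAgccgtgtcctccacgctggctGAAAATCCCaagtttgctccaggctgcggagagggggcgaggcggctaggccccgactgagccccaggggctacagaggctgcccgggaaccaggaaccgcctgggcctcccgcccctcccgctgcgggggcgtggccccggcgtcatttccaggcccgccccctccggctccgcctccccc
*Il15ra*, AP-1 motif with 10 bases on each side, chr2:11705672-11705698, plus strand: gtggggatgcTGAGTCAcagatctgtc
In *Il15ra* the AP-1 motif began 30 bases before 1 of its 2 starts and was not in the window of the other, and in *Fscn1* the CRE began 45 bases before it. The *Nfkb2* start is 1 of 3 in RefSeq, and the other 2 windows each held an NF-κB motif too. A match of letters shows no binding, and with 2 to 4 genes per motif the shares rest on few promoters. NF-κB sites spelled otherwise than GGGNNTTTC were not counted, so that share covers this spelling only.

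*Ccr7*, the receptor that leads DCs to the lymph node (ENSMUSG00000037944.8, chr11:99144196-99155077), had 221, 151 and 159.9 CPM across fl/fl against 26.9, 376 and 60.8 CPM across Δ/Δ libraries. Δ/Δ 2 was thus 14.01-fold above Δ/Δ 1 and above each fl/fl library, while Δ/Δ 1 and Δ/Δ 3 were below each of them. Over genotypes this averaged to 178 ± 38.2 CPM for fl/fl and 155 ± 193 CPM for Δ/Δ (SD, n = 3 each), with a log2 change −0.20, SE 0.84, adjusted p = 0.923. *Ccl22* (ENSMUSG00000031779.3, chr8:94745590-94751699), which attracts CCR4+ T cells, had 145, 104 and 152 CPM across fl/fl against 10.99, 271 and 23.5 CPM across Δ/Δ libraries. The Δ/Δ 1 level was 12.2-fold below the fl/fl mean and its Δ/Δ 2 level 2.03-fold above it (log2 change −0.39, SE 1.02, adjusted p = 0.869). *Ccl17* (ENSMUSG00000031780.2, chr8:94810453-94812036), the other CCR4 ligand, was rare in these cells, with 12, 23 and 37 reads in the fl/fl libraries and 1, 155 and 5 reads in the Δ/Δ libraries. Nearly all Δ/Δ reads of *Ccl17* thus came from Δ/Δ 2 (0.463, 0.853 and 1.57 CPM across fl/fl against 0.0406, 7.23 and 0.2202 CPM across Δ/Δ libraries, log2 change 1.37, SE 1.39, adjusted p = 0.633). All 3 chemokine genes followed the same order of Δ/Δ libraries, and none differed between genotypes by the test with all libraries.

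Among the genes of cell shape, *Fscn1*, which encodes the actin-bundling protein fascin (ENSMUSG00000029581.14, chr5:142960343-142973185), spanned the widest range after the chemokine ligands, with 293, 183 and 236 CPM across fl/fl against 31.8, 655 and 92.7 CPM across Δ/Δ libraries. Its Δ/Δ 2 level was 20.6-fold that of Δ/Δ 1, so a genotype mean of 237 ± 54.9 CPM for fl/fl and 259.7 ± 343 CPM for Δ/Δ describes none of the 3 Δ/Δ libraries (log2 change 0.13, SE 0.93, adjusted p = 0.957). *Cacnb3* (ENSMUSG00000003352.14, chr15:98630840-98644529), a subunit of voltage-gated calcium channels, had 126, 82.6 and 99.5 CPM across fl/fl against 13.6, 151 and 33.7 CPM across Δ/Δ libraries (log2 change −0.64, SE 0.75, adjusted p = 0.685). The groups overlapped in both genes through Δ/Δ 2 alone. *Marcks*, an actin-binding substrate of protein kinase C at the membrane (ENSMUSG00000069662.5, chr10:37133375-37138920), varied far less. It had 445, 450.5 and 502 CPM across fl/fl against 353, 608 and 433 CPM across Δ/Δ libraries (log2 change −0.0035, SE 0.18, adjusted p = 0.994). Its relative *Marcksl1* (ENSMUSG00000047945.6, chr4:129513581-129515985) departed from the pattern, with 191, 176 and 198 CPM across fl/fl against 302, 604 and 313 CPM across Δ/Δ libraries. All 3 Δ/Δ libraries lay above all fl/fl libraries in *Marcksl1* (log2 change 1.11, SE 0.26, adjusted p = 0.0672), short of the limit on the adjusted p with all 6 libraries. *Net1* stayed between 187 and 240.2 CPM in all libraries (log2 change 0.089, SE 0.10, adjusted p = 0.663).

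The NF-κB genes showed a weaker gap between Δ/Δ libraries than the chemokine genes, and some of them sat higher in Δ/Δ. *Relb* (ENSMUSG00000002983.17, chr7:19606217-19629438), a subunit of the non-canonical pathway, had 111, 83.5 and 99.2 CPM across fl/fl against 52.3, 164 and 78.4 CPM across Δ/Δ libraries. Its genotype means were nearly equal (log2 change 0.0038, SE 0.38, adjusted p = 0.997). *Nfkb2*, its partner in that pathway (ENSMUSG00000025225.14, chr19:46304320-46312385), had 143, 122 and 147 CPM across fl/fl against 111, 247 and 146 CPM across Δ/Δ libraries (log2 change 0.29, SE 0.27, adjusted p = 0.595). For both, Δ/Δ 2 lay above and Δ/Δ 1 below every fl/fl library. *Rel*, a canonical subunit (ENSMUSG00000020275.9, chr11:23736847-23770970), varied little, with 164, 171 and 186 CPM across fl/fl against 147, 228 and 186 CPM across Δ/Δ libraries (log2 change 0.11, SE 0.15, adjusted p = 0.742). *Nfkb1* (ENSMUSG00000028163.17, chr3:135584655-135691547), the precursor of p50, had 319.8, 307 and 330.3 CPM across fl/fl against 356, 439 and 444 CPM across Δ/Δ libraries. It was the member with the most even Δ/Δ libraries, and although the genotypes did not overlap, it missed the limit on the adjusted p (log2 change 0.37, SE 0.092, adjusted p = 0.0776). The adaptor gene *Traf1* (ENSMUSG00000026875.14, chr2:34941750-34961772) followed the order of the chemokine genes, with 72.9, 55.8 and 68.9 CPM across fl/fl against 20.2, 104 and 29.997 CPM across Δ/Δ libraries (log2 change −0.36, SE 0.55, adjusted p = 0.764). *Birc3* (ENSMUSG00000032000.17, chr9:7848699-7873186), which encodes the ubiquitin ligase cIAP2, had 153, 139 and 162 CPM across fl/fl against 175, 262 and 200.1 CPM across Δ/Δ libraries, again without overlap (log2 change 0.49, SE 0.15, adjusted p = 0.1297). Its neighbour and paralog *Birc2*, encoding cIAP1, had 86.97, 79.9 and 86.5 CPM across fl/fl against 56.3, 91.96 and 71.8 CPM across Δ/Δ libraries (log2 change −0.20, SE 0.16, adjusted p = 0.536). Reads that match both paralogs were not counted.

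**Figure D3:**
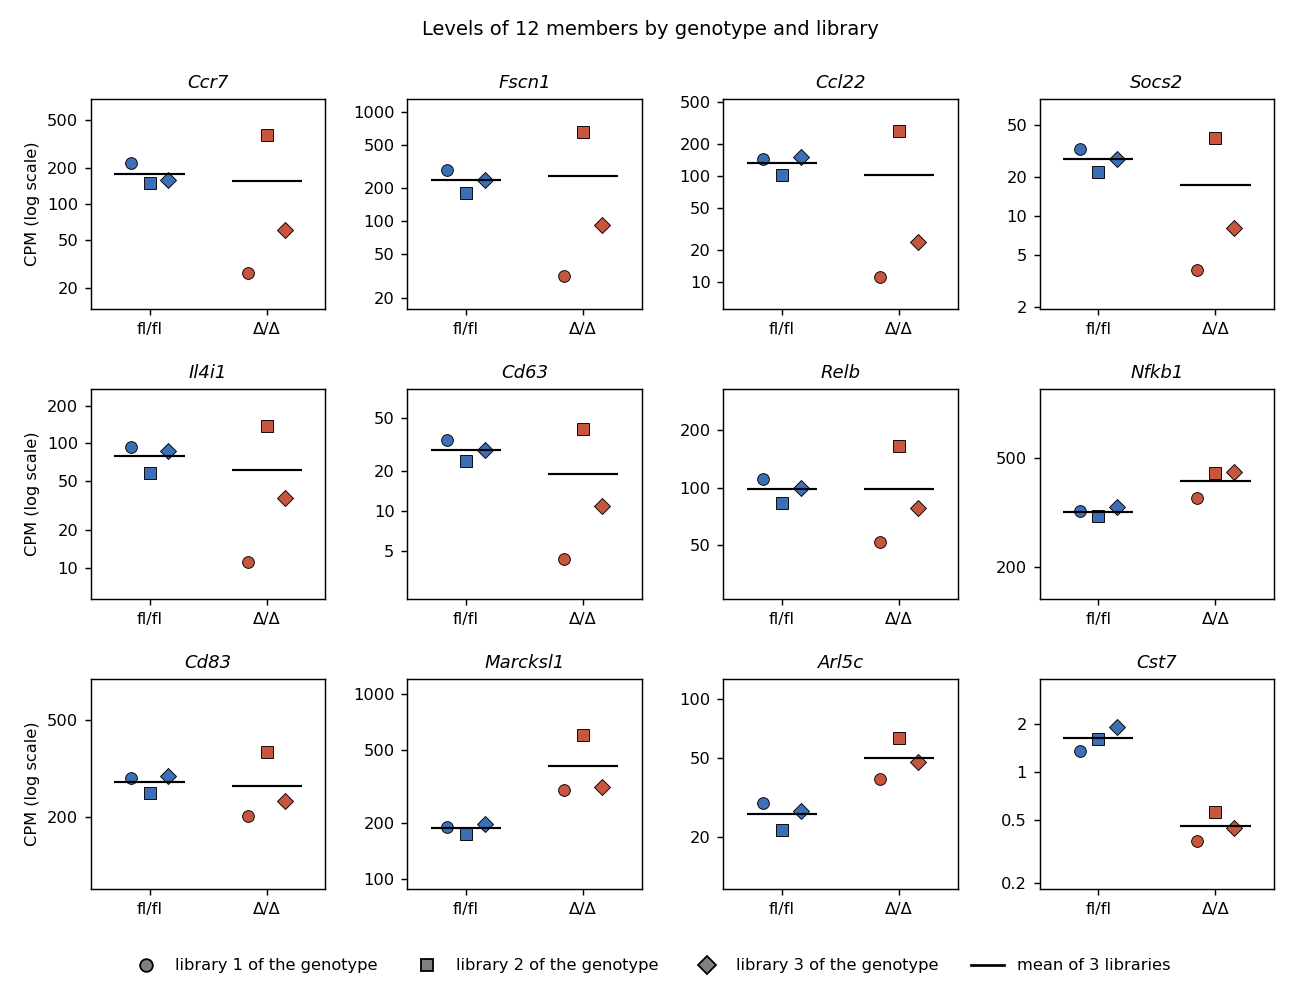
CPM on a log scale for 12 members, with a symbol for each of the 3 libraries of a genotype and a bar at their mean. In *Ccr7*, *Fscn1*, *Ccl22*, *Socs2*, *Il4i1* and *Cd63* the square of Δ/Δ 2 lies above fl/fl and the other Δ/Δ symbols below it. *Relb* and *Cd83* show the same order over a narrower range, *Nfkb1*, *Marcksl1* and *Arl5c* lie higher in all 3 Δ/Δ libraries, and *Cst7* lies lower in all 3.

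Genes of cytokine signalling repeated the order Δ/Δ 2, Δ/Δ 3, Δ/Δ 1 in 7 of 7 cases. *Il15ra* (ENSMUSG00000023206.16, chr2:11705290-11734317), which presents IL-15 to neighbouring lymphocytes, had 18.9, 13.2 and 12.6 CPM across fl/fl against 3.04, 12.9 and 5.64 CPM across Δ/Δ libraries. Here Δ/Δ 2 lay inside the fl/fl range rather than above it (log2 change −1.06, SE 0.48, adjusted p = 0.284). *Socs2* (ENSMUSG00000020027.18, chr10:95385362-95417180), a suppressor of cytokine signalling, had 32.9, 21.95 and 27.4 CPM across fl/fl against 3.85, 39.99 and 8.15 CPM across Δ/Δ libraries. Δ/Δ 1 held 7.12-fold less than the fl/fl mean (log2 change −0.67, SE 0.74, adjusted p = 0.669). The remaining genes of the group were *Adcy6*, an adenylyl cyclase, the receptor gene *Il21r*, *Samsn1*, *Stat4*, which relays IL-12 signals, and *Tbc1d4*, a regulator of Rab GTPases. Their Δ/Δ 2 levels exceeded Δ/Δ 1 by 13.3-, 12.9-, 9.15-, 6.65- and 2.93-fold, and each lay above every fl/fl library in Δ/Δ 2 and below every one in Δ/Δ 1 and Δ/Δ 3. Their adjusted p-values with all libraries ran from 0.742 to 0.899.

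Of the surface and immune regulatory genes, *Cd83* (ENSMUSG00000015396.4, chr13:43784775-43803132), a maturation marker that stabilizes MHC class II, was among the most even. It had 289, 251 and 294 CPM across fl/fl against 202, 368 and 232 CPM across Δ/Δ libraries (log2 change −0.056, SE 0.21, adjusted p = 0.914). *Cd200* (ENSMUSG00000022661.14, chr16:45382135-45409053), ligand of an inhibitory receptor on myeloid cells, had 18.6, 14.5 and 16.2 CPM across fl/fl against 4.67, 24.2 and 6.48 CPM across Δ/Δ libraries (log2 change −0.49, SE 0.57, adjusted p = 0.682). *Cd63* (ENSMUSG00000025351.14, chr10:128900989-128912822), a tetraspanin of late endosomes, had 34.6, 23.99 and 28.7 CPM across fl/fl against 4.38, 41.7 and 11.01 CPM across Δ/Δ libraries (log2 change −0.62, SE 0.69, adjusted p = 0.672). In these 3 genes Δ/Δ 2 was the highest and Δ/Δ 1 the lowest library. *Il4i1* (ENSMUSG00000074141.13, chr7:44816387-44840809), a secreted amino acid oxidase, had 92.8, 57.1 and 86.5 CPM across fl/fl against 11.2, 136 and 36.3 CPM across Δ/Δ libraries (log2 change −0.37, SE 0.75, adjusted p = 0.828). Of its 4080 exonic bases 3423 overlap *Tbc1d17* on the other strand, which had 42.8, 46.02 and 43.7 CPM across fl/fl against 55.2, 55.1 and 65.3 CPM across Δ/Δ libraries, without the order of *Il4i1*. The surface glycoprotein gene *Tmem123* spanned 223 CPM in Δ/Δ 1 to 611 CPM in Δ/Δ 2. *H2-M2*, a nonclassical MHC class I gene, spanned 1.91 to 28.3 CPM over the same libraries and was also the least even over fl/fl after *Ccl17*, with 20.7, 8.71 and 13.999 CPM (log2 change 0.03, SE 0.78, adjusted p = 0.989).

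*Cst7* (ENSMUSG00000068129.5, chr2:150570415-150578944), which encodes cystatin F, an inhibitor of cysteine cathepsins, was the only member called. It had 35, 43 and 45 reads in the fl/fl libraries and 9, 12 and 10 reads in the Δ/Δ libraries, or 1.35, 1.59 and 1.91 and 0.365, 0.5599 and 0.4405 CPM. The genotypes did not overlap, and *Cst7* fell, with means of 1.62 ± 0.2803 CPM for fl/fl and 0.455 ± 0.0982 CPM for Δ/Δ (log2 change −1.82, SE 0.33, adjusted p = 0.0288). *Cst7* departed from most members, since Δ/Δ 2 lay below every fl/fl library too. *Serpinb9* (ENSMUSG00000045827.10, chr13:33003250-33017957), the inhibitor of granzyme B, had 85.7, 58.1 and 67.4 CPM across fl/fl against 50.4, 182 and 34.5 CPM across Δ/Δ libraries. Here Δ/Δ 3 and not Δ/Δ 1 was at the bottom (log2 change 0.33, SE 0.57, adjusted p = 0.791). *Serpinb6b* shared that order, with 65.1, 39.5 and 37.5 CPM across fl/fl against 17.04, 72.3 and 12.8 CPM across Δ/Δ libraries. Both belong to a serpin cluster of similar sequences on chromosome 13, in which ambiguous reads drop out. *Bcl2l14*, of the BCL-2 family, had 11.1, 10.4 and 10.6 CPM across fl/fl against 7.55, 14.4 and 6.48 CPM across Δ/Δ libraries. *Clu*, a secreted chaperone, had 38, 20 and 26 reads in fl/fl and 17, 59 and 22 reads in Δ/Δ libraries (log2 change 0.41, SE 0.56, adjusted p = 0.7398).

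Genes of transport and membranes gave the other member past the limit on the adjusted p. *Arl5c* (ENSMUSG00000038352.15, chr11:97989578-97996181), a small GTPase of the ARF-like family, had 29.4, 21.6 and 26.8 CPM across fl/fl against 38.9, 62.9 and 47.5 CPM across Δ/Δ libraries. All Δ/Δ libraries exceeded all fl/fl libraries, and *Arl5c* rose by just under the fold limit of a call (log2 change 0.94, SE 0.19, adjusted p = 0.0458). Its adjusted p was 0.0905 without Δ/Δ 3 and 0.139 to 0.195 without any 1 of the fl/fl libraries. *Anxa3* (ENSMUSG00000029484.12, chr5:96793339-96845966), an annexin that binds phospholipids, had 56.8, 42.4 and 44.2 CPM across fl/fl against 4.71, 20.2 and 16.9 CPM across Δ/Δ libraries. It lay lower in all 3 Δ/Δ libraries, the lowest again being Δ/Δ 1, and missed the limit (log2 change −1.78, SE 0.46, adjusted p = 0.08603). *Slco5a1* (ENSMUSG00000025938.16, chr1:12866549-12992650), of the organic anion transporter family, had 18.97, 16.1 and 19.9 CPM across fl/fl against 1.95, 22.3 and 5.68 CPM across Δ/Δ libraries (log2 change −0.88, SE 0.72, adjusted p = 0.545). *Apol7c*, of the apolipoprotein L family, had 290.1, 205 and 298 CPM across fl/fl against 80.05, 702 and 157 CPM across Δ/Δ libraries. Δ/Δ 2 exceeded its fl/fl mean 2.66-fold (log2 change 0.24, SE 0.71, adjusted p = 0.885). The last 3 genes were *Nudt17* (ENSMUSG00000028100.11, chr3:96706067-96708562), a nudix hydrolase, *Zmynd15* and *Rogdi*. *Nudt17* had 10.6, 8.602 and 10.1 CPM across fl/fl against 1.298, 12.3 and 1.72 CPM across Δ/Δ libraries (log2 change −0.94, SE 0.77, adjusted p = 0.545). *Zmynd15* and *Rogdi* also had Δ/Δ 2 at the top and Δ/Δ 1 at the bottom, with 2.07, 21.5 and 6.34 and 56.3, 132 and 76.2 CPM in the Δ/Δ libraries.

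Levels per exon length allow only a rough comparison between genes, since the length merged all annotated exons of a gene over its isoforms. Genes with many or long annotated isoforms come out lower on this scale than per transcript. *Tmem123* came first among the members in fl/fl cells with 156 CPM per kilobase, followed by *Apol7c*, *Marcksl1*, *Marcks*, *Cd83* and *Ccr7* with 128 to 89.8. The NF-κB subunits *Nfkb2*, *Nfkb1*, *Relb* and *Rel* lay at 23.2 to 29.99 CPM per kilobase, but their merged exons differ in length, with 4584, 12061, 3885 and 7466 bases. *Ccl17*, *Cst7*, *Slco5a1* and *Clu* were the lowest on this scale, with 0.321 to 1.87. For *Slco5a1*, with a fl/fl mean of 18.3 CPM, this rests on merged exons of 13137 bases. *Ccl22* thus stood at 57.5 CPM per kilobase against 1.87 for *Ccl17*, although both encode ligands of the same receptor.

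Tested between genotypes with all 6 libraries, 1 of the 40 genes was called lower (*Cst7*; 0.869% of all tested genes were called lower), none was called higher (1 by DESeq2's Wald test, none by limma-voom), and 2 had an adjusted p under 0.05 (*Cst7* and *Arl5c*; 3.88% of all). At an unadjusted p under 0.05 stood 6 members, or 15% of the 40, against 19.4% of all tested genes, a share below the background. Without overlap between genotypes, 2 members lay lower in Δ/Δ (*Cst7* and *Anxa3*; background 12.3%) and 4 higher (*Nfkb1*, *Birc3*, *Marcksl1* and *Arl5c*; background 13.7%). The median log2 fold change of the 40 genes was −0.20, against −0.72 by limma-voom, and that of all tested genes with edgeR was 0.00179. By edgeR 26 members (65%) were lower and 14 higher, against 49.7% lower among all tested genes.

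Leaving out Δ/Δ 2 moved the number of called members more than any other alternative run. Without Δ/Δ 2, 14 of the 40 genes were called, all of them lower (1.65% of tested genes were called lower), and 18 had an adjusted p under 0.05, with a median log2 fold change of −1.35. In that fit 35 of the 40 genes stood at an unadjusted p under 0.05, against 20.4% of all tested genes. Among the genes called then were *Ccl22* (log2 change −2.96, SE 0.34, adjusted p = 0.00835), *Nudt17* (log2 change −2.70, SE 0.22, adjusted p = 0.00285), *Socs2* (log2 change −2.20, SE 0.34, adjusted p = 0.0198) and *Ccr7* (log2 change −2.02, SE 0.35, adjusted p = 0.02897). *Fscn1* still missed the limit (log2 change −1.93, SE 0.44, adjusted p = 0.0593), and *Marcksl1* (log2 change 0.71, SE 0.068, adjusted p = 0.00497) and *Arl5c* (log2 change 0.74, SE 0.15, adjusted p = 0.0467) passed it in the other direction. Without Δ/Δ 1, 4 genes were called (4.37% of tested genes), and 8 members stood at an unadjusted p under 0.05, against 26.7% of all tested genes. In the same fit 6 members had an adjusted p under 0.05 (*Anxa3*, *Nfkb1*, *Arl5c*, *Marcksl1*, *Birc3* and *Cst7*), and the median turned to 0.14. Those 6 are the members that do not overlap between the genotypes with all libraries. Without Δ/Δ 3, edgeR called none, 6 members (15%, against 16% of all tested genes) stood at an unadjusted p under 0.05 and the median was 0.04. *Cst7* remained called without Δ/Δ 1 (log2 change −1.68, SE 0.40, adjusted p = 0.0432) and without Δ/Δ 2 (log2 change −1.99, SE 0.39, adjusted p = 0.0383) and lost its call without Δ/Δ 3 (adjusted p = 0.0846) or without any 1 of the fl/fl libraries (adjusted p = 0.118 to 0.141). Leaving out 1 of the Δ/Δ libraries changed the sign of the log2 fold change in 22 of the 40 genes.

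**Figure D4:**
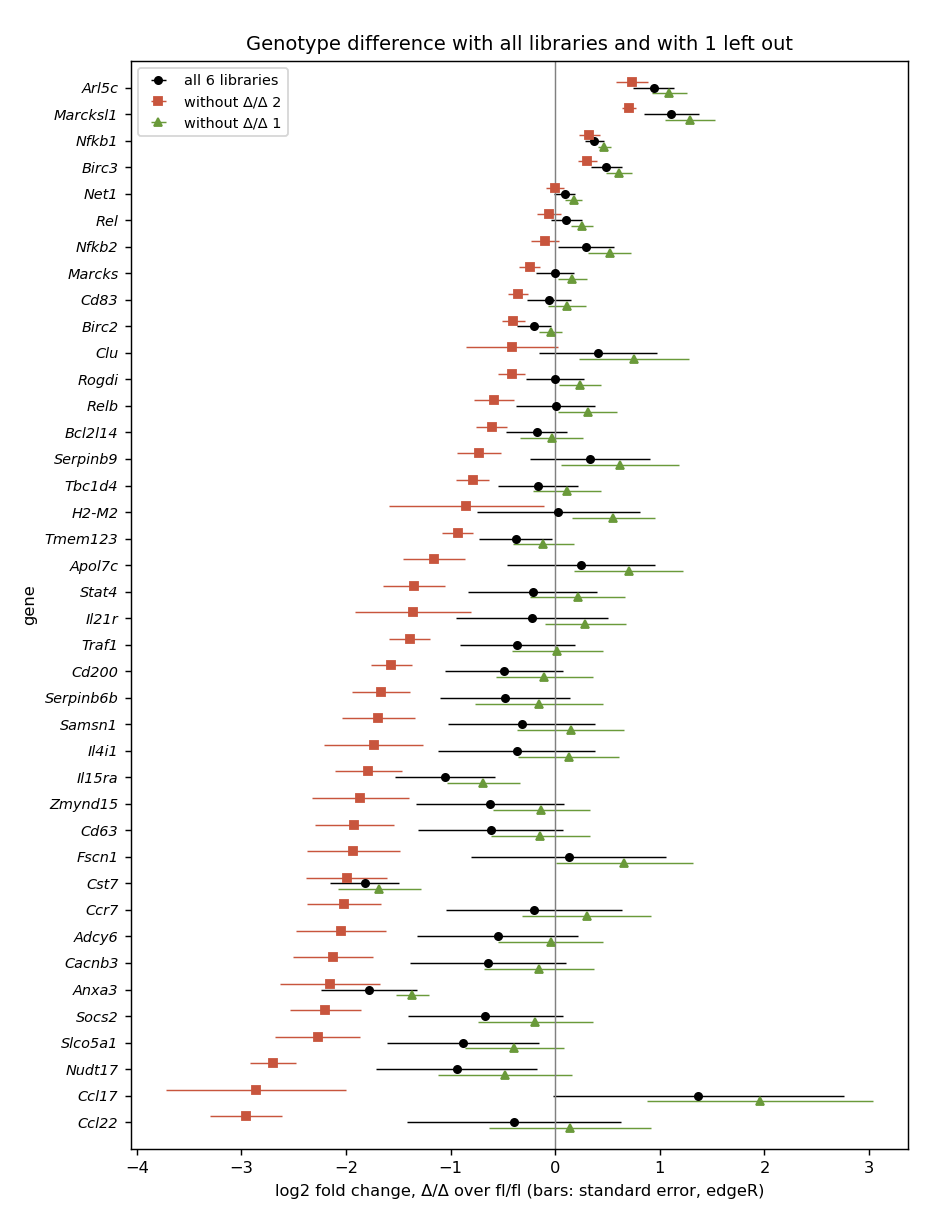
Log2 fold change (Δ/Δ over fl/fl) of each member on the x axis with its standard error from edgeR, for all 6 libraries, without Δ/Δ 2 and without Δ/Δ 1. Without Δ/Δ 2 the genes from *Ccl22* up to *Marcks* lie left of 0. *Cst7*, *Anxa3*, *Il15ra*, *Nfkb1*, *Birc3*, *Marcksl1* and *Arl5c* stay on 1 side in all 3 fits with their errors clear of 0.

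Other genes of the same pathways were read from lists that do not share members with the 40. Of 17 other NF-κB pathway genes, 17 were tested and none was called. *Cyld*, a deubiquitinase that restrains the pathway, fell (189, 192 and 191 CPM across fl/fl against 144, 159.7 and 137 CPM across Δ/Δ libraries, log2 change −0.37, SE 0.068, adjusted p = 0.0315). *Cyld* missed the limit without any 1 of the fl/fl libraries or Δ/Δ 3 (adjusted p = 0.0641 to 0.159). The order Δ/Δ 2, Δ/Δ 3, Δ/Δ 1 held in 12 of the 17, with a median gap of 0.44 between Δ/Δ 2 and Δ/Δ 1 on the log2 scale against 2.08 in the 40 members. Of 28 other genes of DC maturation, 27 were tested. *Il15*, the cytokine that *Il15ra* presents, was called lower, with 11.2, 10.6 and 10.6 CPM across fl/fl against 5.44, 4.62 and 3.304 CPM across Δ/Δ libraries (log2 change −1.27, SE 0.20, adjusted p = 0.0196), a call lost without any 1 of the fl/fl libraries (adjusted p = 0.0731 to 0.110). Unlike *Il15ra*, *Il15* was low in all 3 Δ/Δ libraries. In this list the order held in 17 of 27 genes, 13 had a ratio of at least 4 between Δ/Δ libraries, and the median log2 fold change moved from −0.0066 with all libraries to −1.16 without Δ/Δ 2. *Ccl19*, a ligand of CCR7, had no reads in any library, which allows up to 3 reads per library (0.112 to 0.138 CPM).

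**Figure D5:**
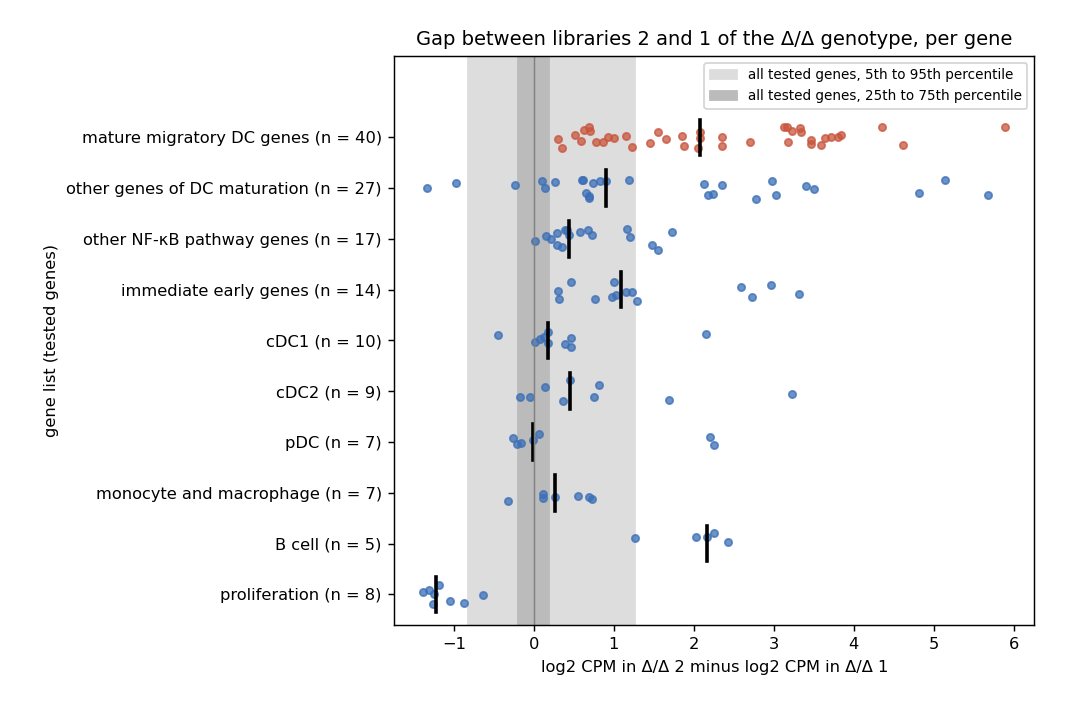
Each point is a tested gene, placed by its log2 CPM in Δ/Δ 2 minus that in Δ/Δ 1, black bars are list medians, and grey bands give the range of all tested genes. The 40 members all lie right of 0 with a median of 2.08, other genes of DC maturation reach as far, and the 8 proliferation genes lie left of 0.

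Markers of other states and cells moved between libraries as well, and their part in the gap between Δ/Δ libraries was not tested. The summed level of 14 immediate early genes was 985, 909.6 and 1318 CPM over fl/fl 1, 2 and 3 against 1178, 2268 and 2678 CPM over Δ/Δ 1, 2 and 3. It was high in Δ/Δ 2 but also in Δ/Δ 3, where the members were low, and none of the 14 passed the test (median log2 fold change 0.91). The 8 proliferation genes summed to 1429, 1299 and 957 CPM over fl/fl 1, 2 and 3 against 1303, 608 and 402 CPM over Δ/Δ 1, 2 and 3. Their sum was low in Δ/Δ 2 and lower in Δ/Δ 3, with none past the test (median −0.75). B cell genes, of which 5 of 6 were tested and none passed, summed to 29.97, 18.7 and 25.7 CPM over fl/fl 1, 2 and 3 against 12.7, 49.3 and 24.1 CPM over Δ/Δ 1, 2 and 3. The Δ/Δ sums had the order of the members, and *Vpreb3* had no reads. Basophil and mast cell genes, of which 1 of 6 was tested, reached 16.8 CPM in Δ/Δ 2 against 0.463 to 2.47 CPM in the other 5 libraries. Neutrophil genes, with 3 of 8 tested and none past the test, summed to 4.204 to 17.6 CPM over fl/fl and 0.852 to 7.42 CPM over Δ/Δ libraries, and *Elane* and *Ly6g* were at 0. The 6 T and NK cell genes stayed at or below 0.730 CPM in sum in each library, so the defining markers of those cells were near 0.

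Among DC markers, 2 of 10 cDC1 genes fell and neither followed the order of the members. These were *Xcr1* (475, 421 and 443 CPM across fl/fl against 178, 201 and 122 CPM across Δ/Δ libraries, log2 change −1.42, SE 0.17, adjusted p = 0.00812) and *Tlr3* (log2 change −0.77, SE 0.13, adjusted p = 0.0226). The limit was missed by *Xcr1* without fl/fl 1 or 2 (adjusted p = 0.0569 and 0.0501) and by *Tlr3* without any 1 of the fl/fl libraries (adjusted p = 0.0885 to 0.108). The order of the members was seen in 2 of the 10 cDC1 genes, *Irf8* over a narrow range and *Itgae*. *Itgae*, encoding CD103, had 151, 206 and 258 CPM across fl/fl against 201, 892 and 229 CPM across Δ/Δ libraries (log2 change 1.10, SE 0.57, adjusted p = 0.343). That order was also found in 4 of 9 cDC2 genes, among them *Cd209a* and *Cd4*. It held in 2 of 7 pDC genes and 2 of 7 tested monocyte and macrophage genes, against 17.1% of all tested genes. Of 9 cDC2 genes 3 rose, *Cd209a* (log2 change 2.25, SE 0.25, adjusted p = 0.00556), *Cd4* (log2 change 2.30, SE 0.43, adjusted p = 0.0339) and *Klf4* (log2 change 0.97, SE 0.18, adjusted p = 0.0321). Of 7 pDC genes *Ccr9* rose (log2 change 1.41, SE 0.12, adjusted p = 0.00333), and of 7 tested monocyte and macrophage genes *Ccr2* (log2 change 0.96, SE 0.13, adjusted p = 0.01296) and *Adgre1* (log2 change 0.91, SE 0.17, adjusted p = 0.0317) did. Genes short of the limit went both ways within a list. The cDC2 genes *Irf4* (log2 change 1.26, SE 0.30, adjusted p = 0.0699), *Itgam* (log2 change 0.95, SE 0.25, adjusted p = 0.0927) and *Clec4a4* (log2 change 0.93, SE 0.31, adjusted p = 0.167) lay higher in all 3 Δ/Δ libraries. The pDC gene *Siglech* lay higher in Δ/Δ (log2 change 1.44, SE 0.32, adjusted p = 0.0571) and *Bst2* lower (log2 change −0.41, SE 0.089, adjusted p = 0.0572). The cDC2 gene *Sirpa* was not raised (log2 change −0.21, SE 0.13, adjusted p = 0.430). *Sirpa* encodes CD172a, and cells with CD172a were excluded by the sort, so its level says little about cDC2 genes. The cDC1 gene *Cadm1* lay higher in all 3 Δ/Δ libraries (log2 change 0.32, SE 0.073, adjusted p = 0.0615). By contrast, the cDC1 genes *Cd24a* (log2 change −0.30, SE 0.068, adjusted p = 0.0605) and *Wdfy4* (log2 change −0.28, SE 0.072, adjusted p = 0.0876) lay lower in all 3. With 1 library left out, *Cd209a* and *Ccr9* stayed past the limit each time, while *Cd4*, *Klf4*, *Ccr2* and *Adgre1* reached adjusted p-values of 0.173, 0.166, 0.0813 and 0.148 without fl/fl 2. Apart from *Ccr2* these genes also missed it without fl/fl 1 or Δ/Δ 3, and *Klf4* and *Adgre1* without fl/fl 3. In sum, cDC2 genes had 198 to 304 CPM over fl/fl and 480.4 to 660.3 CPM over Δ/Δ libraries. The pDC genes summed to 1169 to 1238 CPM over fl/fl and 1349.9 to 1554 CPM over Δ/Δ libraries, and monocyte and macrophage genes to 2450.2 to 2871 CPM over fl/fl and 3466 to 4312 CPM over Δ/Δ libraries. None of these 3 sums overlapped between genotypes. Most of the pDC sum came from *Ptprc*, which encodes CD45, a protein the study also used to gate skin cDCs. *Ptprc* had 926, 1012 and 979 CPM across fl/fl against 1105, 1097 and 1260 CPM across Δ/Δ libraries. Most of the monocyte and macrophage sum came from *Lyz2* and *Ccr2*. *Lyz2* had 1760, 1939 and 1921 CPM across fl/fl against 2378, 1895 and 2520 CPM across Δ/Δ libraries.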

How the data were processed

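Per the labels and the methods, the authors sorted cDC1s from FLT3L cultures, made directional poly(A) libraries, aligned the reads to mm10 (GRCm38) with STAR 2.6.1a, and deposited raw counts of uniquely mapped reads per gene, 1 table per library. No source used here states STAR's strand column, so reads shared with genes on the other strand (for *Il4i1*, *Nfkb2*, *Zmynd15*, *Adcy6*, *Bcl2l14*, *Rogdi* and, over 4 bases, *Nudt17*) are uncertain. The same holds for paralogs and where genes overlap *Stat4*, *Anxa3* and *Il4i1* on their own strand. STAR's tallies of reads outside genes (8.57 to 10.3% on no gene, 3.26 to 4.20% unmapped) stayed out of library sizes and tests. Names and coordinates came from GENCODE M21.

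From these counts, edgeR 4.0.16 in R 4.3.3 gave TMM factors (0.989 to 1.01), CPM, log2 CPM (prior count 2) and the quasi-likelihood test on genotype alone, after filterByExpr (minimum count 10, minimum total 15). Alternatives were DESeq2 1.42.0 size factors and Wald test, limma-voom 3.58.1, other filters, each library left out and a replicate block. On simulated counts the tests were checked before use. Those counts had the same dispersion for every gene and in both genotypes, so the check does not cover the unequal spread of the members. The 40 members, the other gene lists and the rules for naming genes were chosen with earlier results of these data known. Members were given per library if called, past the adjusted p, among the 10 largest fold changes or listed by name in the rule, and other members by range. In chi-square tests each pair of libraries of a genotype differed by more than sampling noise (6.35 to 10.4 per degree of freedom within fl/fl, 27.9 to 38.5 within Δ/Δ). A count of 0 allows up to 3 reads, which covers counting error only. Promoter sequences are RefSeq's on GRCm38.p6. The lists were cDC1, cDC2, pDC, monocyte and macrophage, neutrophil, B cell, T and NK cell, basophil and mast cell, other NF-κB, other DC maturation, immediate early and proliferation genes. Python 3.11.15 with pandas 2.3.3 and matplotlib 3.10.9 made the summaries and figures.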

Additional observations from a re-analysis of the deposited data

How the results depend on the processing

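With all 6 libraries 1 member was called, 2 had an adjusted p under 0.05 and 240 genes were called in all, with a median member log2 fold change of −0.20. DESeq2's size factors and the stricter filter left the member counts as they were. The Wald test of DESeq2 called 3 members, with 6 under an adjusted p of 0.05 and 385 genes called in all. limma-voom called 2 members and 245 genes in all. Without a filter on low counts 3 members were called, with 5 under the adjusted p and 356 genes called in all, and a call without the fold limit gave 2. Leaving out 1 library gave 0 to 14 called members, 0 to 18 with an adjusted p under 0.05, 74 to 579 called genes and medians of −1.35 to 0.14. Without fl/fl 1, 2 or 3 the called genes numbered 74, 80 and 154, without Δ/Δ 1 and Δ/Δ 2 they numbered 579 and 370, and the cause was not tested.

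Signs of single members changed under 4 alternatives that kept all libraries. They turned under DESeq2's size factors for *Marcks* (0.0016) and *Rogdi* (0.0018), under its Wald test for *Marcks* (0.0016) and *Rogdi* (0.0027), and under limma-voom for *Fscn1* (−0.92), *Ccl17* (−0.96), *Relb* (−0.16), *Apol7c* (−0.34), *Serpinb9* (−0.045) and *H2-M2* (−0.64), where the median of the 40 genes was −0.72. None of these members was called under any of them. With 1 library left out, the log2 fold changes ranged across 0 for 22 members: *Ccr7* (−2.02 to 0.30), *Fscn1* (−1.93 to 0.66), *Ccl22* (−2.96 to 0.14), *Ccl17* (−2.86 to 1.96), *Cd83* (−0.36 to 0.11), *Relb* (−0.58 to 0.31), *Rel* (−0.061 to 0.26), *Nfkb2* (−0.10 to 0.52), *Traf1* (−1.39 to 0.021), *Marcks* (−0.25 to 0.16), *Tbc1d4* (−0.79 to 0.11), *Samsn1* (−1.69 to 0.15), *Apol7c* (−1.16 to 0.70), *Serpinb9* (−0.73 to 0.72), *Stat4* (−1.35 to 0.21), *Il4i1* (−1.74 to 0.13), *Bcl2l14* (−0.61 to 0.034), *Clu* (−0.41 to 0.75), *H2-M2* (−0.85 to 0.56), *Net1* (−0.0030 to 0.18), *Il21r* (−1.36 to 0.29) and *Rogdi* (−0.42 to 0.24).

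The labels give both genotypes the replicate numbers 1, 2 and 3 without saying what a shared number marks. Deviations from the genotype means correlated by 0.091, −0.148 and 0.200 between libraries of the same number, so the numbers were not taken to pair the libraries. A fit with the replicate number as a block called 0 members with edgeR, had 0 with an adjusted p (0.0676 for *Cst7*, 0.0938 for *Arl5c*) and 6 with an unadjusted p under 0.05 (15%, against 21.7% of all tested genes), and 207 genes called in all, with a median of −0.57, and changed the sign for *Fscn1* (−0.98), *Ccl17* (−0.36), *Relb* (−0.15), *Apol7c* (−0.40), *Serpinb9* (−0.055) and *H2-M2* (−0.36).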

Other observations

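Genes outside the list shared the gap between the Δ/Δ libraries. They were named here after their values had been seen, as the genes with the widest log2 gap between Δ/Δ 2 and Δ/Δ 1 among the 1260 protein-coding genes with at least 10 CPM on average in the order Δ/Δ 2, Δ/Δ 3, Δ/Δ 1. Members held 9 of the first 20 places and 17 of the first 50. The other places at the top went to *Gbp5*, an interferon-inducible GTPase, with 11.2, 6.90 and 9.59 CPM in the fl/fl libraries and 0.487, 32.2 and 2.91 CPM in the Δ/Δ libraries. *Cd274*, which encodes the checkpoint ligand PD-L1, had 15.7, 9.05 and 15.2 CPM across fl/fl against 1.18, 44.5 and 4.45 CPM across Δ/Δ libraries. *Il12b*, the p40 subunit of IL-12, had 51.7, 35.4 and 40.8 CPM across fl/fl against 4.26, 122 and 13.2 CPM across Δ/Δ libraries. In these 3 genes, as in *Ccr7*, Δ/Δ 2 lay above every fl/fl library and the other Δ/Δ libraries below. *Ramp3*, *Ankrd33b*, *Adora2a*, *Tmcc3*, *Lad1*, *Glipr2*, *Mreg* and *Rgs1* filled the remaining places among the first 20, and none of these 11 genes differed between genotypes by the edgeR test (adjusted p = 0.623 to 0.987).

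*Ccl5*, a chemokine outside the list, had 114, 73.3 and 108 CPM across fl/fl against 4.99, 53.6 and 20.8 CPM across Δ/Δ libraries, so that its Δ/Δ 2 level stayed below the fl/fl range although its Δ/Δ libraries had the order of the members (log2 change −1.90, SE 0.69, adjusted p = 0.194). *Ebi3*, the partner chain of p28 and p35 cytokines and a gene of DC maturation, had 51.1, 46.6 and 47.7 CPM across fl/fl against 51.7, 55.8 and 59.1 CPM across Δ/Δ libraries (log2 change 0.20, SE 0.076, adjusted p = 0.226), without the gap of *Il12b*.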
